A study of Mus musculus with 4 samples.

Results

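TOP2B, the topoisomerase II enzyme of postmitotic neurons, relieves twisting of DNA by cutting both strands, passing another duplex through and resealing the break. During the cut the enzyme is joined covalently to the DNA ends, and etoposide holds it in that state. In the work described here these cleavage complexes were mapped in cultured mouse cortical neurons, and the 342 summits that lie in or within 50 kb of a protein-coding olfactory receptor gene are described. They were picked by position alone, from gene coordinates of GRCm38, and no measured value entered the rule. The rule was set with earlier results of these data known. They are 342 of the 35315 entries of the peak list that lie on autosomes, a share of 0.968%, and of 35539 entries in all. The stretches within 50 kb of the 1103 autosomal receptor genes, called receptor territory below, cover 33.4 Mb, or 1.40% of the autosomes between the first and the last summit of each chromosome.

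All 4 libraries of the study, 2 TOP2B ChIP and 2 Input, came from dissociated cortical neurons of wild-type Swiss-Webster embryos at embryonic day 16, and all received 50 µM etoposide in the medium for 30 min before collection. No library without etoposide and none lacking TOP2B is among them, so the values below describe where drug-trapped complexes were found and not an effect of the drug. The authors' peak list pools libraries, so no value has a replicate, no SD can be given and the depth is unknown, and the labels do not say whether the libraries came from separate cultures. The labels call the cells cortical neurons, and a peak list holds no expression values with which that could be checked. Intervals are exact 95% intervals and cover counting error only.

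Olfactory receptors are G protein-coupled receptors that bind odorants in the sensory neurons of the nose, and they form the largest gene family of the mouse. Most of their genes are short, with an uninterrupted coding exon, and lie in tandem clusters. Each olfactory sensory neuron expresses a single receptor allele, chosen from clusters that are packed in heterochromatin in the other alleles, and cells outside the nose, cortical neurons among them, are known to leave nearly the whole family silent. Class I receptors, related to those of fish, lie in a large cluster on chromosome 7 around the beta-globin genes, and class II receptors make up the rest. The family therefore holds long stretches of sequence with many protein-coding genes that these neurons are not known to use.

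In 5 receptor genes a summit fell inside the promoter window that RefSeq gives for GRCm38.p6, which runs from 250 bases before a transcript start to 50 bases after it. They are shown because they are the places where a summit met the start of a receptor gene. Each window is written 5′ to 3′ in the gene's direction, and the capitals mark the 21 bases centred on the summit. The positions are chr2:37331499-37331798 on the plus strand for Olfr368, chr4:118690401-118690700 on the minus strand for Olfr1342, chr7:86585027-86585326 on the plus strand for Olfr295, chr7:103597068-103597367 on the plus strand for Olfr618 and chr11:49443603-49443902 on the plus strand for Olfr1388. The Olfr1342 window belongs to a transcript start inside the gene model.
Olfr368: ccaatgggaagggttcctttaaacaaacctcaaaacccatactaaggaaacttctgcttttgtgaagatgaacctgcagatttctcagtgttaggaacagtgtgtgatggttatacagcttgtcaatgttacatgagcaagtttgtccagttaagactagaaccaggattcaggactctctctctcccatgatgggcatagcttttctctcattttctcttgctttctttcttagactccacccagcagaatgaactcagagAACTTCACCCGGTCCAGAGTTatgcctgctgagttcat
Olfr1342: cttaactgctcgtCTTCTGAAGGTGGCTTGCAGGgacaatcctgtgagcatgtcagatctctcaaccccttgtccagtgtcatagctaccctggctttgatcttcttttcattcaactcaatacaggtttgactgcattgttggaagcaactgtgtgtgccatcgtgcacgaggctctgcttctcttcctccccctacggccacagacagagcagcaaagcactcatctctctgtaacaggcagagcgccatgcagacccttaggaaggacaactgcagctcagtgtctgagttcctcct
Olfr295: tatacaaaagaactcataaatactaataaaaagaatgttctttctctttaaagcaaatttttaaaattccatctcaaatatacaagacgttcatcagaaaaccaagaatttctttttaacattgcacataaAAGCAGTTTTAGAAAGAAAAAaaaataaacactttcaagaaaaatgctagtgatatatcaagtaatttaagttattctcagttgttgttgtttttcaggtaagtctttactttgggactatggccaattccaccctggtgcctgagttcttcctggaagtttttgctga
Olfr618: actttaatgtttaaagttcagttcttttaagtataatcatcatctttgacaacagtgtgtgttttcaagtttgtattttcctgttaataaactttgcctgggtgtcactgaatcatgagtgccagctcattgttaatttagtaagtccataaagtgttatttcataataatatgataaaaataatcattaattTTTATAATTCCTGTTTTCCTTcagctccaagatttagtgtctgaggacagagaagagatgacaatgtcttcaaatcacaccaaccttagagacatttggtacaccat
Olfr1388: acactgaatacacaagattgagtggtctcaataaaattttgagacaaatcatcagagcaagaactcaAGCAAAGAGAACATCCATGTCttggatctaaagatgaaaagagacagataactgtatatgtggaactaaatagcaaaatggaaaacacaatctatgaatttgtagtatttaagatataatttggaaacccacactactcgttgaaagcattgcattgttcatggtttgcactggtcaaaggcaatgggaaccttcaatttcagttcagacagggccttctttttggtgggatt

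These windows had little in common in base composition. G and C made up 43.0% of the Olfr368 window, 51.3% of the Olfr1342 window, 29.3% of the Olfr295 window, 31.3% of the Olfr618 window and 36.0% of the Olfr1388 window. The motif TAATNA, a homeodomain-like site sought on both strands, was found in the Olfr295 window and 5 times in the Olfr618 window, where TATAAA was found as well. The other 3 windows held neither of these, and none of the 5 held CCCNNGGG, the core of the site of the factor EBF, known in olfactory neurons. Over all 942 windows of receptor genes TAATNA was found in 66.0%, against 26.5% of all 32817 promoter windows of the table. TATAAA was found in 41.1% of receptor windows against 13.6% of all windows, and CCCNNGGG in 3.08% against 13.7%. Among the 46 windows of receptor genes with a summit in the gene or within 1 kb, TAATNA was found in 50.0%, TATAAA in 37.0% and CCCNNGGG in 6.52%, each between the values of all receptor windows and of all windows. The summits in these windows were of ordinary height. The fold, in which the authors' caller divides the pileup of fragments by a control level, was 3.11 at Olfr295, 2.94 at Olfr1342, 2.77 at Olfr618, 2.42 at Olfr368 and 2.25 at Olfr1388, and the q-value passed 0.05 at Olfr295 only.

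Receptor territory held fewer summits than the rest of the autosomes. There were 10.2 summits per Mb in receptor territory (interval 9.18 to 11.4), against 14.8 per Mb in the rest of the autosomes (14.7 to 14.97, from 34973 summits in 2360 Mb). The ratio of the rates was 0.691 (0.619 to 0.768). Had each chromosome's territory held summits at the rate of the rest of that chromosome, 518 would have been found, and the observed number was 0.660 times that (0.592 to 0.734). Beyond the chosen distance the density was not lower. Between 50 and 100 kb from a receptor gene there were 15.4 summits per Mb (12.6 to 18.7), and between 50 kb and 1 Mb the rate was 16.6 per Mb, so that receptor territory had 0.615 times the density of its own surroundings (0.545 to 0.692).

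**Figure D1:**
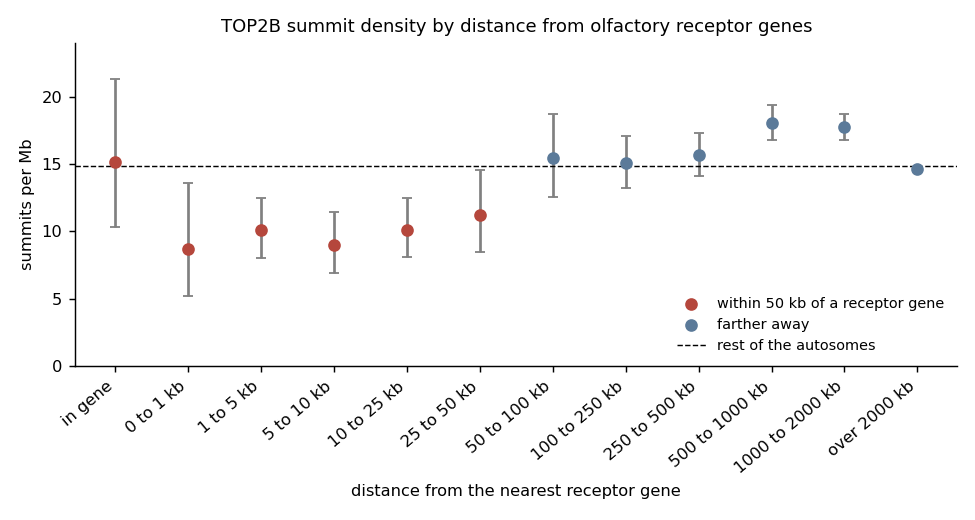
Summits per Mb (vertical axis) by distance from the nearest olfactory receptor gene, from inside the gene to over 2000 kb away. Points are rates, bars are exact 95% Poisson intervals and the dashed line is the rest of the autosomes at 14.8 per Mb. The 5 rings from 0 to 50 kb outside the genes lie between 8.68 and 11.2, and the rings beyond 50 kb between 14.6 and 18.0.

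Inside the receptor genes themselves the density was near that of the rest of the autosomes, on few summits. The 32 summits in receptor gene bodies came to 15.1 per Mb (10.3 to 21.3), against 14.8 per Mb in the rest of the autosomes. Protein-coding genes of other families outside the territory held 17.9 per Mb, which that interval also includes. Just outside the genes, within 1 kb, 19 summits gave 8.68 per Mb (5.23 to 13.6). From 1 to 5 kb the rate was 10.1, from 5 to 10 kb 8.96, from 10 to 25 kb 10.1 and from 25 to 50 kb 11.2 per Mb (8.45 to 14.5). Receptor gene bodies had 1.53 times the density of the rest of the territory (1.03 to 2.20), with 15.1 summits per Mb in the genes and 9.90 per Mb outside them. Split by length, the ratio was 1.76 (0.972 to 2.95, 15 summits) for genes of 1100 bp or less and 1.36 (0.783 to 2.21, 17 summits) for longer genes, so neither group on its own had an interval clear of 1. The short receptor genes had 17.4 summits per Mb, against 14.8 per Mb in other protein-coding genes of the same length, where 6 summits were counted, and the ratio of 1.18 had an interval of 0.431 to 3.70.

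Folds were similar on both sides of the 50 kb limit. The farthest members lay 47793 bp from Olfr1371, 48059 bp from Olfr663 and 48629 bp from Olfr1380, with folds of 2.77, 2.94 and 2.94. The nearest summits outside lay 50008 bp from Olfr161, 50368 bp from Olfr460 and 50379 bp from Olfr720, with folds of 2.77, 3.46 and 2.42. There were 23 members at 40 to 50 kb, with a median fold of 2.77, and 29 summits at 50 to 60 kb, with a median of 2.59.

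Most members lay between genes. By position, 233 of 342 (68.1%, 62.9 to 73.0) were outside every listed gene and over 1 kb from any receptor gene. Another 19 (5.56%) were outside but within 1 kb of a receptor gene. A further 45 (13.2%) were in a protein-coding gene of another family and 32 (9.36%) in a receptor gene. The remainder were 3 in a receptor pseudogene and 10 in another listed gene. Sequence outside listed genes and over 1 kb from receptor genes is 76.2% of the territory. Receptor genes are 6.34% of it and protein-coding genes of other families 7.33%. The share of members was thus below the share of sequence in the first of these and above it in both kinds of gene. The median member lay 7610 bp from a receptor gene, with quartiles of 2630 and 18399 bp. Protein-coding genes of other families that run through the territory held 18.7 summits per Mb (13.7 to 24.9), against 17.9 per Mb in such genes elsewhere on the autosomes, a ratio of 1.04 (0.764 to 1.39). All sequence outside listed genes, here with that within 1 kb of receptor genes, held 252 summits in the territory. This was 9.13 per Mb, against 12.5 per Mb elsewhere, a ratio of 0.728 (0.641 to 0.825).

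Other protein-coding genes cover 2.47 of the 33.4 Mb of receptor territory, against 975 of 2360 Mb of the rest of the autosomes, and sequence far from genes held fewer summits in both. The comparison was therefore repeated by distance from other protein-coding genes. Territory over 50 kb from any other protein-coding gene had 8.85 summits per Mb (7.66 to 10.2), against 11.6 per Mb in the rest of the autosomes over 50 kb from any protein-coding gene, a ratio of 0.764 (0.661 to 0.879). Territory within 50 kb of another protein-coding gene had 13.1 per Mb (11.1 to 15.5), against 16.6 per Mb in the rest of the autosomes within 50 kb of a protein-coding gene, a ratio of 0.791 (0.666 to 0.933). These nearer parts were not alike in sequence inside genes. Other protein-coding genes cover 2.47 of 10.8 Mb in the territory and 975 of 1523 Mb in the rest. The ratio of 0.791 is therefore not matched for gene content. Within receptor territory, the part far from other genes had 0.674 times the density of the part near them (0.541 to 0.841). The whole of receptor territory set against sequence far from genes elsewhere gave a ratio of 0.884 (0.791 to 0.985).

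How well short reads can be placed among near-identical receptor genes can bear on such densities, and the treatment of reads that map to several places is not given in the sources used here. The promoter windows give a partial view. A stretch of 50 bases that recurs in another window of the table was found in 13.8% of receptor windows and 6.70% of windows of other protein-coding genes. Counted over stretches and not windows, 2.96% of the stretches in receptor windows recurred, against 3.18% of those in windows of other genes, so the measures differ in direction. A summit lay within 5 kb of 9 of the 130 receptor windows with such a stretch (6.92%, 3.21 to 12.7) and of 11.1% of those without (9.01 to 13.4), against 6.13% and 19.8% for windows of other genes. Receptor windows are also rich in A and T, with a median of 35.0% G and C against 57.7% in other windows. Of windows under 40% G and C, 9.38% of the receptor windows had a summit within 5 kb (7.35 to 11.8), against 10.9% of the windows of other genes (9.07 to 13.0), and those intervals overlap. Of windows at or over 40%, the shares were 14.04% (9.80 to 19.2) for receptor genes and 19.4% (18.8 to 20.0) for other genes. The part of mappability and base composition in the lower density was not tested further.

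Receptor genes lie on 16 autosomes, and the density ratio was below 1 on 13 of them. Its interval lay wholly below 1 on 7 of 16, or 43.8%, namely chromosomes 1, 2, 7, 9, 11, 16 and 17, and wholly above 1 on 0. Chromosome 2, with 287 receptor genes the richest, had 54 summits in 7.21 Mb of territory, 7.49 per Mb in the territory against 16.3 per Mb in the rest of the chromosome, a ratio of 0.460 (0.345 to 0.602). Chromosome 7, with 239 genes, had 10.03 summits per Mb in its territory against 15.5 per Mb outside it, a ratio of 0.645 (0.492 to 0.832). On chromosome 16 the territory had 7 summits and 4.92 per Mb, against 13.4 per Mb in the rest of the chromosome, a ratio of 0.366 (0.147 to 0.756). On chromosome 17 the territory had 10 summits and 6.48 per Mb, against 15.8 per Mb, a ratio of 0.409 (0.196 to 0.755).

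Chromosomes 4, 6 and 15 had ratios above 1. The territory of chromosome 4 had 19.4 summits per Mb against 15.4 per Mb outside it, a ratio of 1.26 (0.758 to 1.97). The territory of chromosome 6 had 18.6 per Mb against 13.97 per Mb, a ratio of 1.33 (0.820 to 2.04), and that of chromosome 15 had 19.4 per Mb against 15.9 per Mb, a ratio of 1.22 (0.527 to 2.41). All 3 intervals reach well below 1, and these chromosomes hold 24, 28 and 9 receptor genes. Territory rates ranged from 4.92 to 19.4 per Mb between chromosomes, a wider range than the 11.9 to 18.5 per Mb of the same chromosomes outside the territory, where far more summits were counted.

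**Figure D2:**
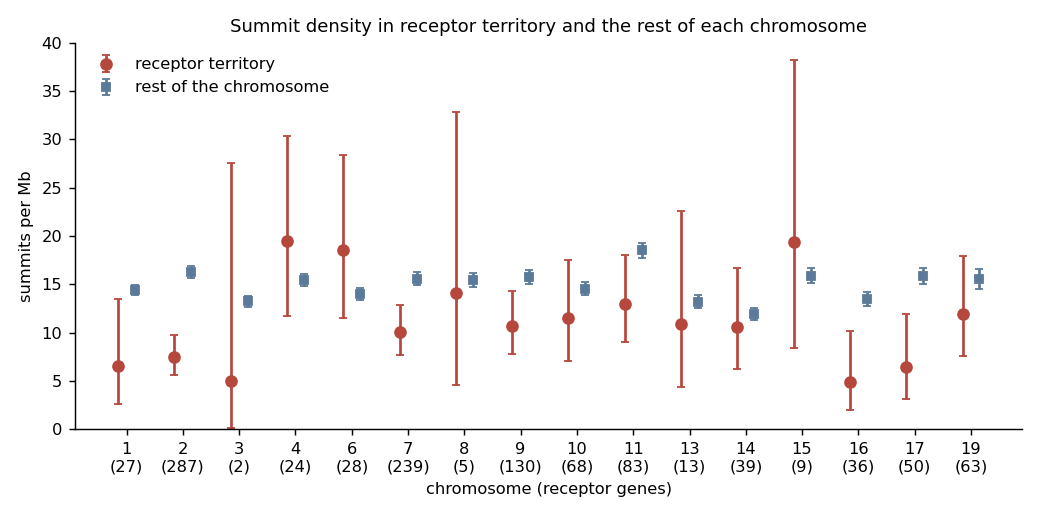
Summits per Mb in receptor territory (circles, left of each pair) and in the rest of the same chromosome (squares, right), with exact 95% Poisson intervals, for the 16 autosomes with receptor genes, whose number stands in brackets. The circle lies below its square on 13 chromosomes and above it on 4, 6 and 15, and the upper interval ends of chromosomes 1, 2, 7, 9, 11, 16 and 17 stay below their squares.

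Joined at gaps of at most 500 kb, the receptor genes formed 52 clusters. Of these, 38 had a lower summit density than the rest of their chromosome and 14 a higher density, and 7 had no summit. The interval of the ratio lay below 1 in 11 of 52 clusters, or 21.2%, and above 1 in 0. The 23 clusters of 10 or more genes hold 1002 receptor genes and 264 of the members. Of these 23, 20 lay below their chromosome, 10 with the interval clear of 1, and their median was 10.3 summits per Mb.

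The cluster with most genes, Olfr987 to Olfr1274 on chromosome 2, holds 222 receptor genes in 5.13 Mb of territory. It had 36 summits, where the rate of the rest of chromosome 2 would give 83.5. Its density was 7.02 per Mb (4.91 to 9.71), a ratio of 0.431 (0.301 to 0.598), and only 3 of the 36 lay in a receptor gene. Its 36 summits were spread along the whole cluster, the longest stretch without a summit being 421 kb with 16 receptor genes in it. At the end of that stretch stood a member among the highest in fold, next to Olfr1260.

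The class I cluster on chromosome 7, Olfr543 to Olfr692, holds 126 genes, 122 of them class I and the others given no class. It had 21 summits, 7.91 per Mb (4.90 to 12.1), a ratio of 0.509 to the rest of its chromosome (0.314 to 0.780). The longest summit-free stretch of territory in it, 559 kb, holds 27 receptor genes and 9 other genes. Those 9 include Hbb-bt, Hbb-bs, Hbb-bh2, Hbb-bh1 and Hbb-y, the beta-like globin genes of red blood cells and their precursors. Territory within 50 kb of class I genes and of no class II gene, all of it in this cluster, had 7.91 summits per Mb, against 10.4 per Mb in territory near class II genes only (313 summits in 30.1 Mb), a ratio of 0.762 with an interval of 0.465 to 1.19. Territory near genes of both classes, 0.222 Mb with 1 summit, was left out of that comparison. So was territory near none but the 24 receptor genes that were given no class. As the territory near class I genes only is this cluster, the class and that place on chromosome 7 cannot be told apart.

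The other 3 clusters of over 50 genes also had ratios below 1. Olfr160 to Olfr986 on chromosome 9, with 95 genes, had 26 summits and 10.1 per Mb, a ratio of 0.640 (0.417 to 0.941). Olfr1417 to Olfr1505 on chromosome 19, with 63 genes, had 23 summits and 11.95 per Mb, a ratio of 0.768 (0.484 to 1.16). Olfr9 to Olfr827 on chromosome 10, with 58 genes, had 14 summits and 10.6 per Mb, a ratio of 0.730 (0.398 to 1.23). The intervals of the clusters on chromosomes 19 and 10 include 1.

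Among clusters of 10 or more genes the lowest density was in Olfr433 to Olfr220 on chromosome 1. Its 13 genes had no summit in 0.490 Mb, where the rate of the rest of chromosome 1 would give 7.06. A floor of 3 counts in that territory is 6.13 per Mb, and the exact upper bound of a count of 0 is 7.53 per Mb, against 14.4 per Mb in the rest of chromosome 1. Olfr172 to Olfr209 on chromosome 16, with 25 genes, had 2 summits and 2.85 per Mb (0.345 to 10.3), against 13.4 per Mb outside the territory. A summit with a fold of 2.77 lay in Olfr183, whose model spans 71199 bp, 26994 bp from its nearer end. The other lay 18646 bp from Olfr177 with a fold of 2.27. Olfr722 to Olfr750 on chromosome 14, with 28 genes, had 5 summits and 4.76 per Mb (1.54 to 11.1). Olfr90 to Olfr136 on chromosome 17, with 46 genes beside the Gabbr1 gene and genes of the major histocompatibility complex, had 9 summits and 6.67 per Mb (3.05 to 12.7). Olfr1275 to Olfr1318 on chromosome 2, with 37 genes, had 7 summits and 6.82 per Mb (2.74 to 14.1).

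At the other end, Olfr458 to Olfr47 on chromosome 6 had 17 summits for 20 receptor genes, 23.9 per Mb (13.9 to 38.2). The rest of chromosome 6 had 13.97 per Mb, and the ratio of 1.71 had an interval of 0.993 to 2.74. None of its 17 summits lay in a receptor gene or in another protein-coding gene, and such other genes cover 5.58% of its territory. Of the 17, 1 had a q of 0.05 or less, beside 23.5% of all autosomal entries. Olfr1396 to Olfr1380 on chromosome 11, with 19 genes, had 11 summits and 20.03 per Mb (9.999 to 35.8), close to the 18.5 per Mb of the rest of its chromosome, and 4 of the 11 lay in genes of other families. Olfr62 to Olfr1328 on chromosome 4 had 6 summits and 16.2 per Mb, Olfr1358 to Olfr57 on chromosome 10 had 7 and 13.8 per Mb, and Olfr310 to Olfr292 on chromosome 7 had 7 and 13.3 per Mb. The 7 summits of the chromosome 10 cluster all had its end gene Olfr1358 as nearest receptor gene. A stretch of 289 kb of that cluster's territory held no summit. Of the 253 pairs among the 23 clusters, 9 had intervals that did not overlap, which was the planned comparison. By the interval of the rate ratio, 35 of the 253 excluded 1. The pairs share clusters, and the number that counting error alone would give was not computed. Of the 23 clusters, 3 had an interval that excluded the 10.2 per Mb of all receptor territory.

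**Figure D3:**
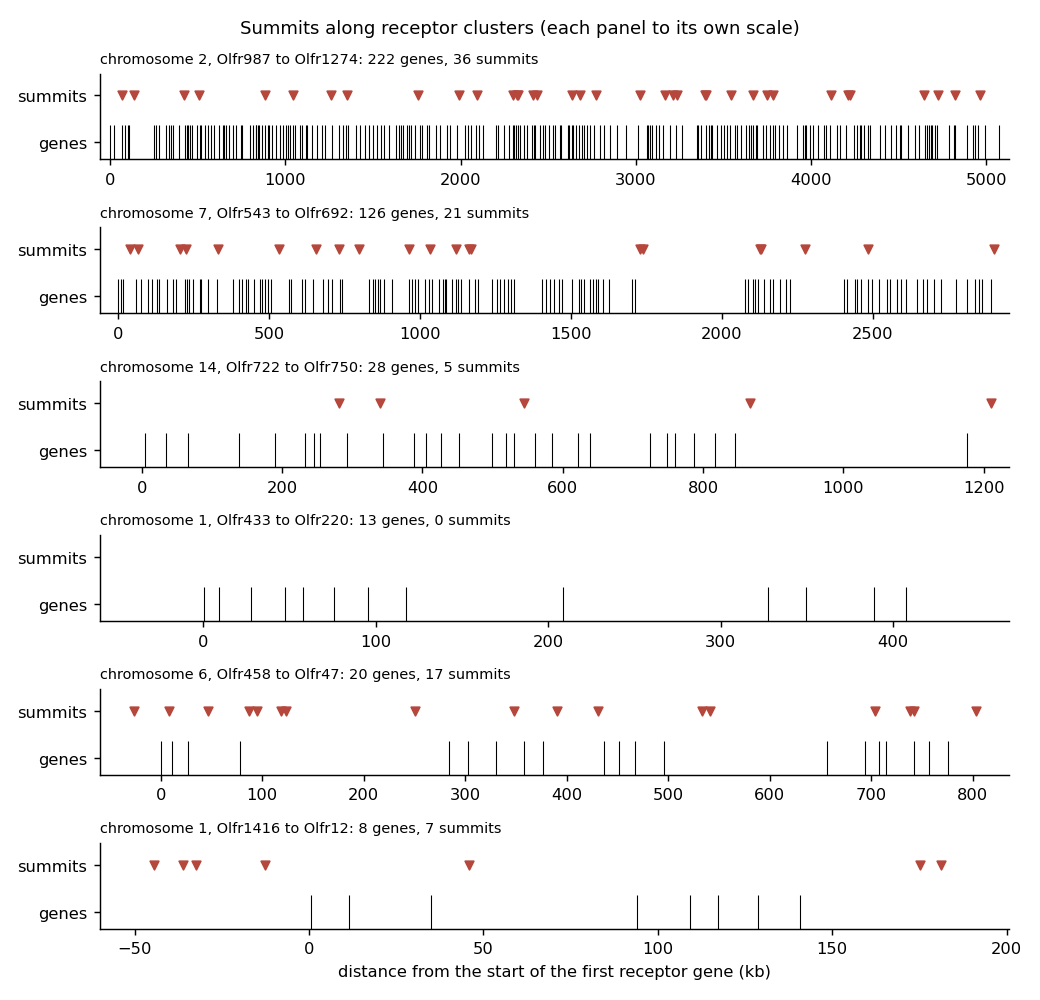
Receptor genes (black ticks) and summits (red triangles) along 6 clusters, as distance in kb from the start of the first receptor gene, each panel on its own scale. The cluster of 222 genes has 36 summits spread along it, the class I cluster has a gap of 559 kb, the chromosome 1 cluster of 13 genes has none, and the chromosome 6 cluster of 20 genes has 17.

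Density did not follow the number of genes evenly. Over all 52 clusters Spearman's rho between the number of receptor genes and summits per Mb was -0.0069, and over the 23 clusters of 10 or more genes it was -0.34, both given as descriptions of clusters that share libraries. In bands of size chosen after the values were seen, the observed number of summits over that expected from the rate of the same chromosomes was 0.711 (0.325 to 1.35) for the 9 clusters of 1 gene, 0.728 (0.450 to 1.11) for those of 2 to 4 genes, 1.25 (0.924 to 1.66) for 5 to 9 genes and 0.875 (0.675 to 1.12) for 10 to 24 genes. It was 0.528 (0.418 to 0.658) for 25 to 49 genes and 0.559 (0.464 to 0.669) for 50 genes or more. Other protein-coding genes were at 9.90, 13.98, 13.3, 10.8, 3.12 and 3.23 per Mb of territory in the same 6 bands, so the bands of lowest summit density were also those with fewest other genes. The part of those other genes in the lower density of the large clusters was not tested beyond the comparisons by distance from genes above.

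**Figure D4:**
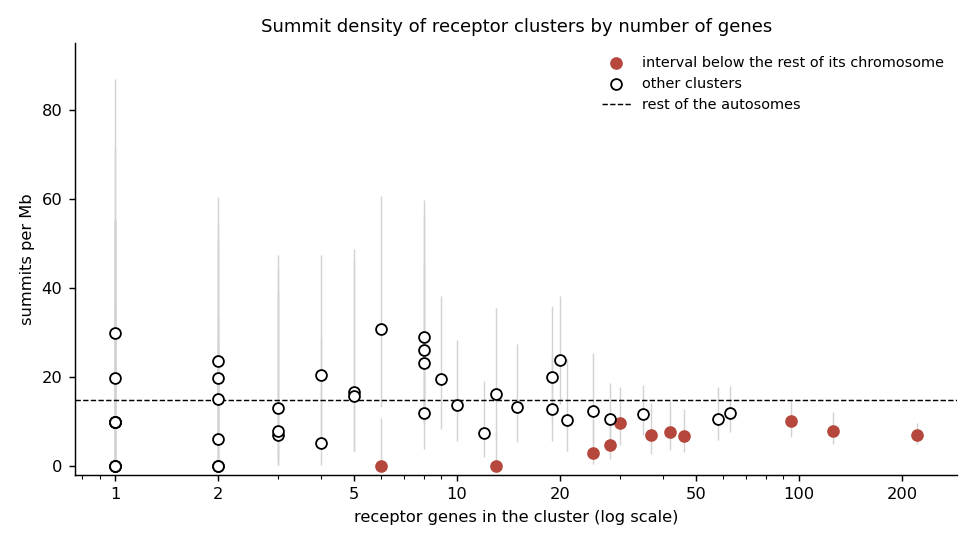
Summits per Mb of each of the 52 clusters (vertical axis) by its number of receptor genes (horizontal, log scale), with exact 95% Poisson intervals. Filled points are the 11 clusters whose ratio to the rest of their chromosome has an interval below 1, open points are the others, and the dashed line is the rest of the autosomes at 14.8 per Mb. Clusters of 25 or more genes all lie below the line, and smaller clusters spread to both sides of it with wide intervals.

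Among small clusters, Olfr1416 to Olfr12 on chromosome 1 had 7 summits around 8 genes, 29.0 per Mb (11.7 to 59.8). These were all the members on chromosome 1, whose other clusters had none. Of the 7, 3 lay in a protein-coding gene of another family and none in a receptor gene, and 6 of the 7 lay outside the row of receptor genes. Olfr221 to Olfr1507 on chromosome 14, which includes MOR28, a receptor whose choice depends on the nearby H enhancer, had 8 summits and 23.0 per Mb (9.94 to 45.4), 4 of them in the other protein-coding genes Arhgef40, Zfp219 and Sall2. Both intervals include the rate outside receptor territory of their chromosome, 14.4 per Mb on chromosome 1 and 11.9 per Mb on chromosome 14.

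In height and width the members had values close to those of summits elsewhere. The median fold was 2.77 in members and 2.77 in other autosomal summits, with quartiles of 2.49 and 2.94 in both. The pileup reconstructed at the summit had a median of 15 fragments in members, with a range of 12 to 21, and a median of 15 with a range of 11 to 264 in other summits. The median width was 217 bp in members and 222 bp in other entries. A q-value of 0.05 or less was reached by 80 of 342 members, or 23.4% (19.01 to 28.2), beside 23.5% of all autosomal entries. The reconstructed control level was at its most common value of 4.78 in 69.0% of members and 71.1% of other entries.

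The highest fold was 3.80 in members, against 49.6 in other autosomal entries, which are far more numerous. Of the other entries 226 of 34973 (0.646%) were above 3.80, a share at which 2.21 of the 342 members would be. Control levels over 2 times the most common one were found at 0 of 342 members and at 92 of 34973 other entries (0.263%). A floor of 3 counts among the members is a share of 0.877%, and the exact upper bound of a count of 0 is 1.07%. The share in other entries lies under both, so a lack of such summits among the members was not detectable at this number. Members stood farther apart, with a median of 27673 bp to the nearest other summit, against 20084 bp over all autosomal entries, and 10.5% of members had another summit within 5 kb (7.48 to 14.3), against 17.4% over all.

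**Figure D5:**
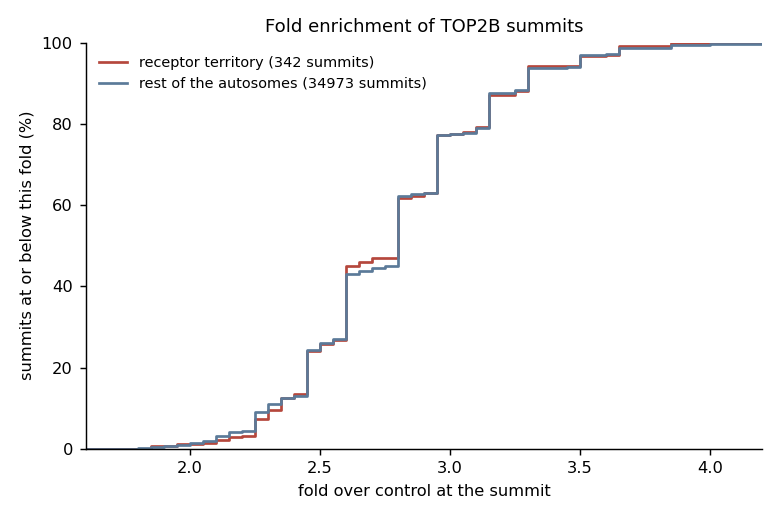
Share of summits (%) at or below each fold over control, for the 342 summits in receptor territory and the 34973 in the rest of the autosomes. The curves lie on each other up to a fold near 3.8, where that of receptor territory ends. Both rise in steps, since most summits share a control level and the pileup is a whole number.

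The steps in fold are those of single fragments. Of the members, 54 had a fold of 2.59, which is 14 fragments over the most common control, 44 had a fold of 2.77 at 15 fragments and 41 a fold of 2.94 at 16 fragments. The 3 members of highest fold all had 21 fragments, a fold of 3.80 and a q of 0.00162. They were chr10:129205928-129206236, 18677 bp from Olfr773 and outside listed genes, chr19:12710158-12710518 in Keg1, 26442 bp from Olfr1443, and chr2:89973213-89973487, outside listed genes and 4425 bp from Olfr1260. A further 7 members shared a fold of 3.63, with 20 fragments and a q of 0.00437, near Olfr1358, Olfr466, Olfr1418, Olfr1423, Olfr1285, Olfr70 and Olfr516. The one near Olfr70 lay in Tmem8b and the other 6 outside listed genes.

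By q-value the fourth member was chr2:36333322-36333534, 43321 bp from Olfr338, with 21 fragments over a higher control, a fold of 3.57 and a q of 0.00383. The widest members spanned 572 bp at 33997 bp from Olfr12, 569 bp near Olfr769, 569 bp in Olfr1342, 531 bp near Olfr1221 and 439 bp near Olfr371. Their folds ran from 2.59 to 3.29. The 10 highest members came from 8 clusters, with 3 in Olfr1417 to Olfr1505 on chromosome 19, and none lay in a receptor gene.

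Few receptor genes had a summit of their own. In the gene or within 1 kb of either end, 50 of 1103 receptor genes had a summit (4.53%, 3.38 to 5.93), against 40.6% of all protein-coding autosomal genes. The genes differ in length, and the median is 951 bp for receptor genes and 17618 bp for all protein-coding genes. Among genes of matched length, 33 of 899 receptor genes of 1100 bp or less had a summit (3.67%, 2.54 to 5.12), against 13 of 429 other genes of 842 to 1100 bp (3.03%, 1.62 to 5.13), and the intervals overlap. By class, 4 of 125 class I genes (3.20%, 0.879 to 7.99) and 45 of 954 class II genes (4.72%, 3.46 to 6.26) had one. For 78.6% of receptor genes the length in the table is a multiple of 3, as for a coding length alone, so windows at gene ends may miss true transcript starts.

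The 51 summits at these 50 genes had folds of 1.83 to 3.29 with a median of 2.77. A q of 0.05 or less was reached by 8 of the 51, beside 23.5% of all autosomal entries. Of the 47 at genes with a known strand, 30 lay inside the gene, 9 upstream of its start and 8 downstream of its end. The highest was in Olfr699 on chromosome 7, with a fold of 3.29 and a q of 0.0208, 178 bp from the gene's start. Olfr27 on chromosome 9, whose model spans 16906 bp, had 2 summits, with folds of 3.24 and 2.94, and no other receptor gene had more than 1. Olfr887 on chromosome 9 had a summit 927 bp beyond its end, with a fold of 3.23 and a q of 0.0102. Summits at Olfr1349, Olfr1466, Olfr279 and Olfr295 shared a fold of 3.11 and a q of 0.0390. Next came 11 summits with a fold of 2.94.

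Some receptors that have been studied singly serve as examples. The summit nearest to the M72 gene, Olfr160, lay 44.3 kb away with a fold of 2.36, and that nearest to the P2 gene, Olfr17, lay 49.5 kb away with a fold of 2.25. At MOR28, Olfr1507, the nearest lay 12.6 kb away with a fold of 2.92 and a q of 0.0542, and at MOR23, Olfr16, it lay 92.3 kb away. Olfr558, the mouse counterpart of human OR51E1 and expressed outside the nose, had a summit inside the gene with a fold of 2.59 and a q of 0.177. The same summit was the nearest to Olfr78, a receptor of blood vessels and the carotid body, at 38.1 kb. These genes were chosen after the values were known.

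No summit lay within 50 kb of 456 of the 1103 receptor genes (41.3%, 38.4 to 44.3). The share was 49.9% (45.1 to 54.7) for other protein-coding genes of 842 to 1100 bp and 14.2% for all protein-coding genes outside the family. The median distance to the nearest summit was 38.1 kb for receptor genes, against 48.1 kb for other protein-coding genes of 842 to 1100 bp and 4.80 kb for all protein-coding genes outside the family. By this measure short genes of other families were no nearer to summits than receptor genes were. The receptor gene farthest from any summit was Olfr1354 on chromosome 10, at 353719 bp. The next 4, Olfr1355, Olfr8, Olfr1356 and Olfr1353, were its neighbours in the same cluster, Olfr1358 to Olfr57.

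Among other chemosensory receptor families, those of the vomeronasal receptors also had few summits. Territory of the Vmn1r genes, vomeronasal receptors for pheromones, had 6.50 summits per Mb (5.07 to 8.22) and that of the Vmn2r genes had 7.40 per Mb (5.89 to 9.19), against 14.8 per Mb outside olfactory receptor territory. The ratios were 0.439 (0.342 to 0.555) and 0.500 (0.397 to 0.620). The Vmn1r interval ends below the lower bound of olfactory receptor territory, 9.18 per Mb, and the Vmn2r interval ends at it. The smaller families were counted on few summits, with 13.8 per Mb (3.77 to 35.4) around the trace amine receptors Taar, 12.4 per Mb (7.09 to 20.1) around the bitter taste receptors Tas2r and 9.67 per Mb (3.14 to 22.6) around the formyl peptide receptors Fpr. The intervals of these smaller families all include 14.8 per Mb, so no lower density was shown for them. Summits lay in or within 1 kb of 8 of 227 Vmn1r genes, 20 of 117 Vmn2r genes, which are longer, 3 of 35 Tas2r genes, and none of 15 Taar and 7 Fpr genes.

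The genes that act with the receptors were looked at beside them. Of a list of 30 genes of olfactory signalling and receptor choice, 17 had a summit in the gene or within 1 kb of an end, beside 40.6% of all protein-coding genes, and 1, Ebf4, had it at an end. Adcy3, the adenylyl cyclase of olfactory signalling that is also found in cilia of brain neurons, had 2 summits with a highest fold of 3.63. Ano2, the chloride channel that amplifies the odour response, had 8 summits over 350 kb with a highest fold of 3.63, and Ebf1, a transcription factor, had 4 with a highest fold of 3.63. Ebf4 and Slc24a4, a sodium, potassium and calcium exchanger, each reached 3.46. Omp, the marker of mature olfactory sensory neurons, the channel genes Cnga4 and Cngb1, and Rtp1 and Rtp2, which carry receptors to the cell surface, had none. Several of the genes with summits are long, and no allowance for length was made in these counts.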

How the data were processed

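Per the labels' protocols, cleavage complexes were isolated by native TOP2B ChIP, adapters were ligated, the 5′ strand was digested with lambda exonuclease and libraries were made by linear amplification. FastQC, Trimmomatic, BWA, SAMtools and MACS2, with builds mm10 and GRCm38.p6, are named in the submitters' processing notes. How the caller was set, and how duplicates and multi-mapping reads were treated, is not given in the sources used. The authors deposited 1 pooled peak list without a header, whose layout gives the fold enrichment (a linear ratio at the summit) and, for each entry, a −log10 p and a −log10 q. The score column of the deposited list was not used. The smallest deposited −log10 p was 2.00. Peak positions were turned to 1-based coordinates. Depth per library is unknown.

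Pileup and control were reconstructed from the fold, read as (pileup + 1) / (control + 1), and from p, read as a Poisson tail, within 0.002 of −log10 p. This gave a unique answer for 35529 of 35539 entries (99.97%), all 342 members among them. Genes came from the RefSeq table of GRCm38.p6. Territory was the union of receptor genes with 50 kb on each side, within the span of summits of each chromosome, which left out 1 receptor gene. Classes were read from MOR family numbers among the synonyms, since the table's symbols do not give the human-style family numbers first planned. This gave no class for 24 receptor genes. Rates have exact Poisson intervals, rate ratios exact conditional binomial intervals and shares exact Clopper-Pearson intervals at 95%. No p-value was computed, as a pooled list has no replicates. Counting was tested on simulated data. Calculations used Python 3.11.15, pandas 2.3.3, numpy 2.4.6, scipy 1.17.1 and matplotlib 3.10.9.

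Named items were the 10 members of highest fold and of lowest q, the 5 widest, the 10 receptor genes with the highest summits, the 5 densest and 5 sparsest clusters of 10 or more genes and the clusters with most genes, ties for the last place being counted. The members and lists were chosen with earlier results of these data known. Size bands, the class split, promoter windows by composition and the receptors studied singly were chosen after seeing the values.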

Additional observations from a re-analysis of the deposited data

How the results depend on the processing

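No paired analysis was possible because the list pools the libraries, and for the same reason no replicate could be left out. Of 32 alternatives for the density ratio of 0.691, 31 were below 1 and 30 had an interval below 1. Many of them share most of their summits, among them the runs that each leave out 1 of the 16 chromosomes. The count is therefore no measure of separate support. The ratio was 0.668 to 0.747 when each chromosome was left out in turn. It was 1.02 (0.701 to 1.45) when only the receptor genes themselves were counted. The lower density was thus found for the territory around the genes, and that interval settles no direction for the gene bodies. The ratio was 0.615 against sequence 50 kb to 1 Mb away and 0.884 against sequence over 50 kb from any protein-coding gene. It was 0.617 against sequence within 50 kb of a protein-coding gene, and 0.597 for territory over 50 kb from other genes. Among alternatives added after seeing the data, clusters under 10 genes gave 0.976 (0.772 to 1.22) and clusters of 10 or more genes 0.636. Clusters of 10 or more genes with an interval below their chromosome numbered 10, and 3 when only entries with q of 0.05 or less were counted, which leaves fewer summits per cluster. The share of members under the q limit was 40.6% at 0.1, against 40.7% of all autosomal entries, and 3.22% at 0.01, against 3.51%. Receptor genes with a summit numbered 50 within 1 kb, 31 in the gene itself, 133 within 5 kb and 208 within 10 kb. Counts per cluster are small, which limits any comparison of single clusters.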

Other observations

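The X chromosome was left out of the comparisons. It holds 6 protein-coding olfactory receptor genes, and 2 of its 190 summits lay in or within 50 kb of them, in 548 kb of territory, or 3.65 per Mb. A count of 3 in that territory would be 5.47 per Mb, so the X chromosome territory is too small for a rate to be read from it.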
